A study of Mus musculus with 6 samples.

Results

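The genes described here are 38 enzymes and transporters of glucose uptake, glycolysis, lactate export, the glycerol phosphate shuttle and the pentose phosphate pathway, out of 22134 genes in the deposited table. They were listed by name for their roles in these pathways, and the list was drawn up with earlier results of these data known. RNA was measured by total RNA sequencing after ribosomal RNA removal in adipose tissue of WT mice. The 3 creeping fat libraries came from mice given repeated colonic cautery injury, which burns the bowel wall, and the 3 control libraries came from mesenteric adipose tissue of WT mice with no injury. Values are FPKM, reads scaled by gene length and library total. Levels and shares compared between genes rest on the length used for each gene. The direction of a difference between groups in 1 gene or 1 ratio does not. Of the 38 genes, 35 reached 1 FPKM in at least 3 of the 6 libraries and were tested. Aldoc, Fbp1 and Fbp2 did not.

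Glucose enters cells through GLUT transporters and is trapped by hexokinases as glucose phosphate. That intermediate either runs down glycolysis to pyruvate and lactate, or enters the pentose phosphate pathway, whose oxidative branch makes NADPH and whose non-oxidative branch interconverts sugar phosphates. In adipocytes, the insulin-responsive transporter GLUT4 supplies glucose, NADPH from the pentose phosphate pathway feeds fatty acid synthesis, and glycerol phosphate made from a glycolytic intermediate is the backbone of triglyceride. Activated macrophages and fibroblasts are known for high glucose uptake and lactate export. Several steps are encoded by more than 1 gene, and the isoforms differ in tissue and in regulation.

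Of the 35 tested genes, 4 rose and 5 fell in creeping fat at a limma adjusted p under 0.05, with p-values adjusted over all 12812 genes tested. That is 11.4% higher and 14.3% lower, against 9.35% higher, 6.81% lower and 16.2% either way among all genes tested, so the share that rose was near the share over all genes. The 4 that rose were the glucose transporter Slc2a1, the hexokinase Hk1, the enolase Eno2 and the lactate exporter Slc16a3. The 5 that fell were the phosphofructokinase regulators Pfkfb1 and Pfkfb3, the glycerol phosphate dehydrogenases Gpd1 and Gpd2, and the pentose phosphate enzyme Tkt. The median log2 fold change of the 35 was -0.16, with 14 positive and 21 negative, against 0.02 over all genes tested. Of the abundant enzymes of the glycolytic trunk, Gpi1, Aldoa, Tpi1, Gapdh, Pgk1, Pgam1, Eno1 and Pkm, none passed the test. Nothing in the labels says that samples of 1 group came from separate animals, so the p-values measure the spread between these libraries, which may be technical in part.

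**Figure D1:**
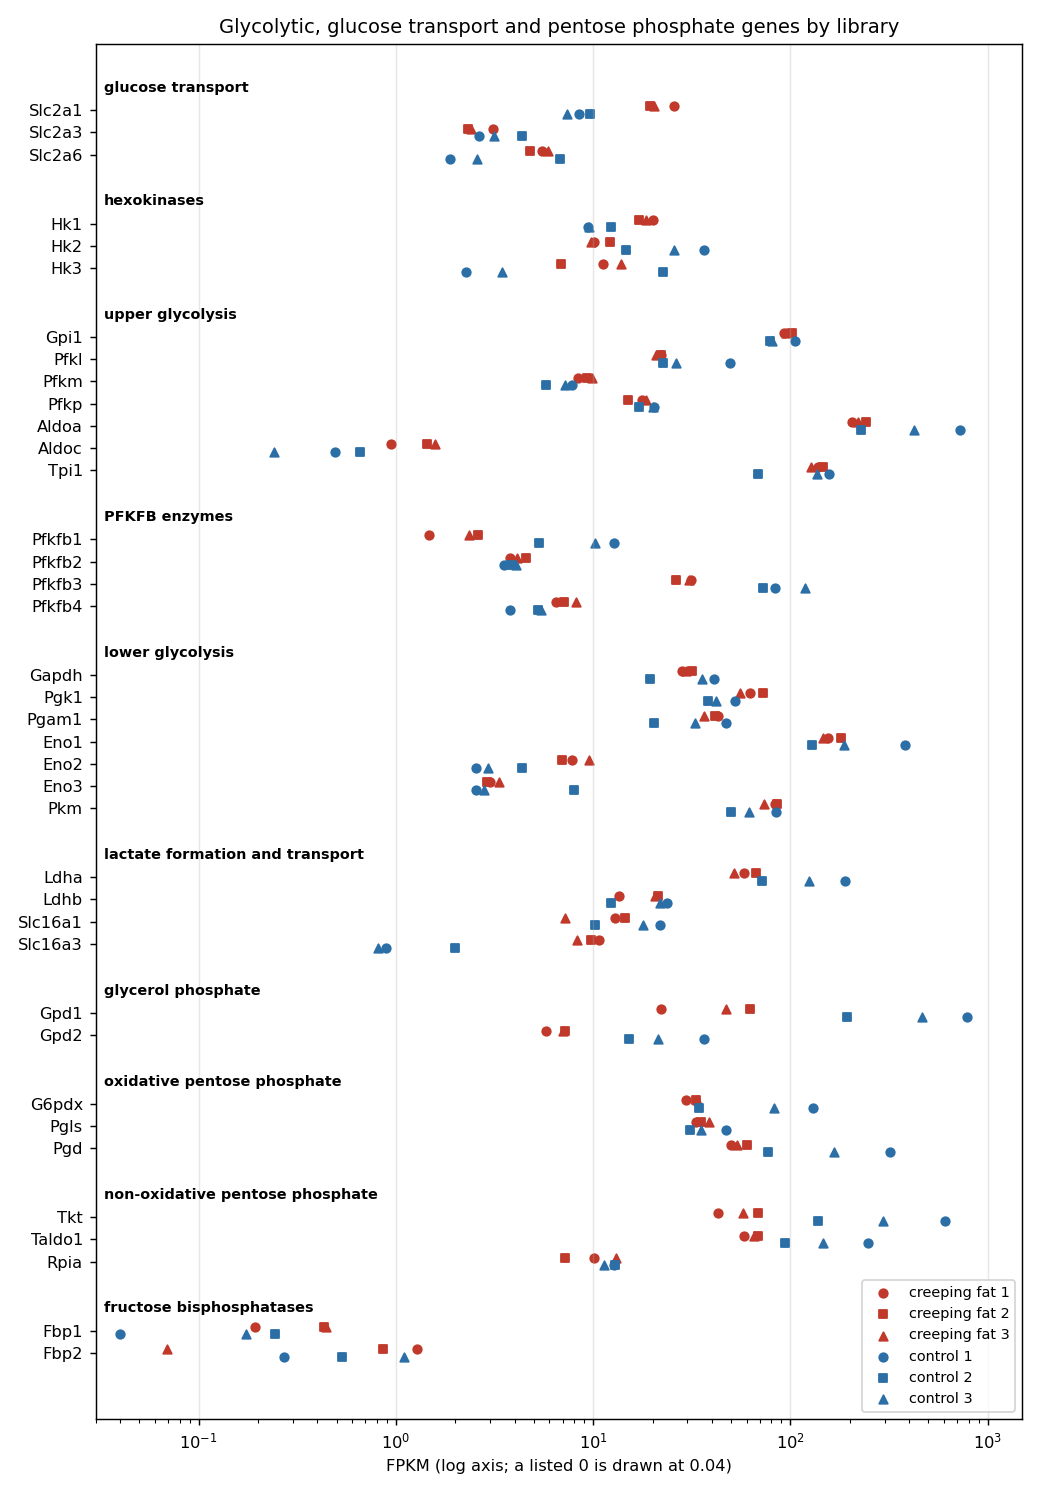
FPKM of the genes in each of the 3 creeping fat and the 3 control libraries on a log axis, grouped by role. The creeping fat libraries lie close together for most genes, while control 2 lies below the other controls for many of those that are lower in creeping fat.

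Libraries held 32837045 to 36158204 reads in creeping fat and 31186018 to 43415696 reads in control, and 3 reads in a gene of 1 kilobase correspond to 0.0691 to 0.0962 FPKM. Control 2 stood apart from the other controls on the second principal component, which held 19.72% of the variance. The tissues differed in cell markers. An adipocyte list of 14 genes took 0.359%, 0.867% and 0.504% of all FPKM in the creeping fat libraries, against 4.34%, 1.59% and 3.88% in the controls, and 12 of the 14 fell. A macrophage list of 14 took 1.69%, 1.05% and 1.71% in creeping fat against 0.238%, 0.539% and 0.407% in control, with 10 higher. A fibroblast list of 9, all higher, took 2.78% to 3.76% in creeping fat against 0.268% to 0.345% in control. No gene of these 3 lists was at 0 in all libraries, and the adipocyte gene Adipoq was measured at 80.05 to 174.5 FPKM in creeping fat, against 450.7 to 1536 FPKM in control. Genes of seminal vesicle took 5.38% to 9.62% of FPKM in creeping fat against at most 0.0286% in control, and genes of exocrine pancreas 0.00846% to 1.71% against 5.18% to 13.3%. In bulk tissue, fewer cells of a type and less RNA per cell cannot be told apart, and the part of these marker shares in the changes below was not tested.

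Promoters are shown for Slc16a3 and Slc2a1, which rose, and for Pfkfb3 and Tkt, which fell, because hypoxia-inducible factor (HIF), an oxygen-sensitive regulator whose subunit gene Hif1a rose in creeping fat, is known to act on several glycolytic genes. Each runs from 250 bases before to 50 bases after a start site in RefSeq GRCm38.p6, printed 5′ to 3′ along the gene, with the HIF core letters ACGTG or GCGTG on either strand in capitals (on the opposite strand they read CACGT or CACGC). They lie at chr11:120948817-120949116 (+) for Slc16a3, chr4:119108495-119108794 (+) for Slc2a1, chr2:11502041-11502340 (-) for Pfkfb3 and chr14:30548881-30549180 (+) for Tkt.
Slc16a3: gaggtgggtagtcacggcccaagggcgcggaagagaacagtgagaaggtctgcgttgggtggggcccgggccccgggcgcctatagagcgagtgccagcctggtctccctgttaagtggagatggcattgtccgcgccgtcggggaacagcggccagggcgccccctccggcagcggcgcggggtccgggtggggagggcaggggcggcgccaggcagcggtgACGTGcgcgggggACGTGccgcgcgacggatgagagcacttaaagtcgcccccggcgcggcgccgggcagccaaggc
Slc2a1: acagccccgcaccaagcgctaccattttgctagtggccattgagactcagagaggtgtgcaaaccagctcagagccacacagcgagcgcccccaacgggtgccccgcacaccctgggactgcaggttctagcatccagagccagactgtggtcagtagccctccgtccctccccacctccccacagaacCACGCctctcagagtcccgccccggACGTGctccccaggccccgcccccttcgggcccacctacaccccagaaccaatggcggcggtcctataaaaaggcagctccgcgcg
Pfkfb3: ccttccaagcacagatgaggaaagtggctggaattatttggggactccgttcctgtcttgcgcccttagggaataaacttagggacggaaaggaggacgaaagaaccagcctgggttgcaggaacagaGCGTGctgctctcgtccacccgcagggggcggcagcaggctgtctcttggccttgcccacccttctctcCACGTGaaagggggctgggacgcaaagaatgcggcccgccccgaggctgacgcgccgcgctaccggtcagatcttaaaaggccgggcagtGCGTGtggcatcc
Tkt: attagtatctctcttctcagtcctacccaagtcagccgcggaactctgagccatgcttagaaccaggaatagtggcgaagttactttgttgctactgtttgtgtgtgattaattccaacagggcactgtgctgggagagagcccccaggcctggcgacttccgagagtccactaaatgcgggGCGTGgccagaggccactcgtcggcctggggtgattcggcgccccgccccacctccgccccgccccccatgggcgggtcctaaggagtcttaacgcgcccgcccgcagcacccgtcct
Slc16a3 and Slc2a1 hold 2 matches each and Tkt holds 1. The table has 2 start sites for Pfkfb3: the one shown was chosen after its matches were seen and holds 4, of which 2 overlap in 1 palindromic CACGTG, and the other, at chr2:11553880-11554179 (-), holds 1 match and no CACGTG. The core occurs in 43.8% of the 32851 promoters of the table and at least 2 matches in 20.6%, and CACGTG occurs in 7.15%. Counted in the same way, per promoter and with every listed start site, the core was in 3 of 5 promoters of the genes that rose, 5 of 9 promoters of the genes that fell and 42 of 55 promoters of all the glycolytic genes with an entry. A match is a description of letters and not of binding.

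Among glucose transporters, Slc2a1, which encodes the basal transporter GLUT1, was at 25.5, 19.3 and 20.3 FPKM in creeping fat and 8.47, 9.67 and 7.39 FPKM in control. All 3 creeping fat libraries were high, creeping fat 1 the highest, and the groups did not overlap. The log2 fold change was 1.25 ± 0.17 (SE; adjusted p = 0.0051), a mean of 2.55-fold. The call held in 15 of 15 alternative settings (other pseudocounts, filters, scalings and fits, and libraries left out). Slc2a3, the high-affinity GLUT3, averaged 2.61 ± 0.43 FPKM in creeping fat and 3.37 ± 0.87 FPKM in control (SD, n = 3 each), and the groups overlapped. Slc2a6, a lysosomal hexose transporter of macrophages in mouse, was at 5.49, 4.79 and 5.88 FPKM in creeping fat and 1.89, 6.81 and 2.59 FPKM in control. Its highest value was control 2. Slc2a6 was called in 2 of 14 settings, both without that library. Leaving out only control 2, it was higher in creeping fat (log2 fold change 0.99, adjusted p = 0.0035). The same step raised the share called higher among all genes tested from 9.35% to 22.6%. Within a library, Slc2a3 relative to Slc2a1 was 0.122, 0.12 and 0.119 in creeping fat and 0.312, 0.449 and 0.424 in control.

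Adding the adipocyte transporter Slc2a4, which encodes GLUT4 and is not one of the 38 genes, shows which carrier dominated. Slc2a4 was at 6.19, 15.5 and 10.8 FPKM in creeping fat, against 116, 30.9 and 77.5 FPKM in control (log2 fold change -2.57 ± 0.51, adjusted p = 0.018). Of the summed FPKM of these 4 transporters, Slc2a1 made up 63.3%, 46.1% and 51.5% in creeping fat, against 6.57%, 18.7% and 8.16% in control. Slc2a4 made up 15.4%, 36.9% and 27.4% in creeping fat, against 89.9%, 59.7% and 85.5% in control. The most abundant transporter of the 4 was thus Slc2a1 in each creeping fat library and Slc2a4 in each control library. The summed level was 39.29 to 41.86 FPKM in creeping fat, against 51.68 to 128.9 FPKM in control.

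The 3 hexokinases phosphorylate glucose. Hk1 (chr10:62268855-62379920), the housekeeping isoform, was at 20.1, 17 and 18.5 FPKM in creeping fat and 9.39, 12.4 and 9.53 FPKM in control (log2 fold change 0.78 ± 0.16, adjusted p = 0.0178), and the groups did not overlap. Hk2, the insulin-regulated isoform of fat and muscle, was at 10.1, 12.2 and 9.76 FPKM in creeping fat and 36.6, 14.7 and 25.8 FPKM in control. Every creeping fat value of Hk2 lay below every control value, but the controls spread widely, with control 2 lowest, and the test was not passed (-1.11 ± 0.31, adjusted p = 0.0565). It was passed in 3 of 15 settings, with adjusted p up to 0.173 over the 15. FPKM rescaled without pancreas, seminal vesicle and prostate genes passed (adjusted p = 0.0453). The other passes left out control 2, alone or with creeping fat 2. Hk3, an isoform of myeloid cells, was at 11.3, 6.89 and 13.8 FPKM in creeping fat and 2.27, 22.5 and 3.44 FPKM in control, where control 2 had the highest value of all 6. Control 2 thus had the highest Hk3 and the lowest Hk2 of the controls. It also had the highest B and T lymphocyte marker share, 0.116% against at most 0.0614% in the other 5 libraries, and among controls the highest macrophage and the lowest adipocyte share. Without control 2, Hk2 was lower (-1.45, adjusted p = 0.00173) and Hk3 higher (1.56, adjusted p = 0.00618) in creeping fat. That step also raised the calls over all genes tested to 22.6% higher and 14.5% lower. Hk3 was called in 2 of 15 settings, both without control 2. The call of Hk1 ended without creeping fat 1 (adjusted p = 0.0872), creeping fat 2 (0.0524), creeping fat 3 (0.0753), control 1 (0.0563) or control 3 (0.0804), and its log2 fold change stayed between 0.72 and 0.96 over all settings.

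The summed hexokinase level was 41.5, 36.1 and 42.1 FPKM in creeping fat and 48.2, 49.5 and 38.8 FPKM in control, so the groups overlapped in the sum while the isoforms took different shares. Hk1 made up 48.4%, 47.1% and 44.0% of it in creeping fat, against 19.5%, 25.0% and 24.6% in control. Hk2 made up 24.5%, 33.8% and 23.2% in creeping fat, against 75.8%, 29.6% and 66.5% in control. The Hk2 to Hk1 ratio was 0.505, 0.716 and 0.527 in creeping fat and 3.89, 1.19 and 2.71 in control, a log2 difference of -2.01. Hk1 exceeded Hk2 in every creeping fat library, and Hk2 exceeded Hk1 in every control. The ratios of 15 isoform pairs were compared in this way with an exact two-sided permutation test over libraries. With 3 against 3 libraries the exact test cannot give a p below 0.1. Of the 15 pairs, 10, this one included, reached that value, since their groups did not overlap (exact permutation p adjusted over the 15 pairs = 0.15). Several pairs share a gene, so they are not separate results. The share of such ratios among pairs of other genes was not computed, and 37% of all single genes tested did not overlap.

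**Figure D2:**
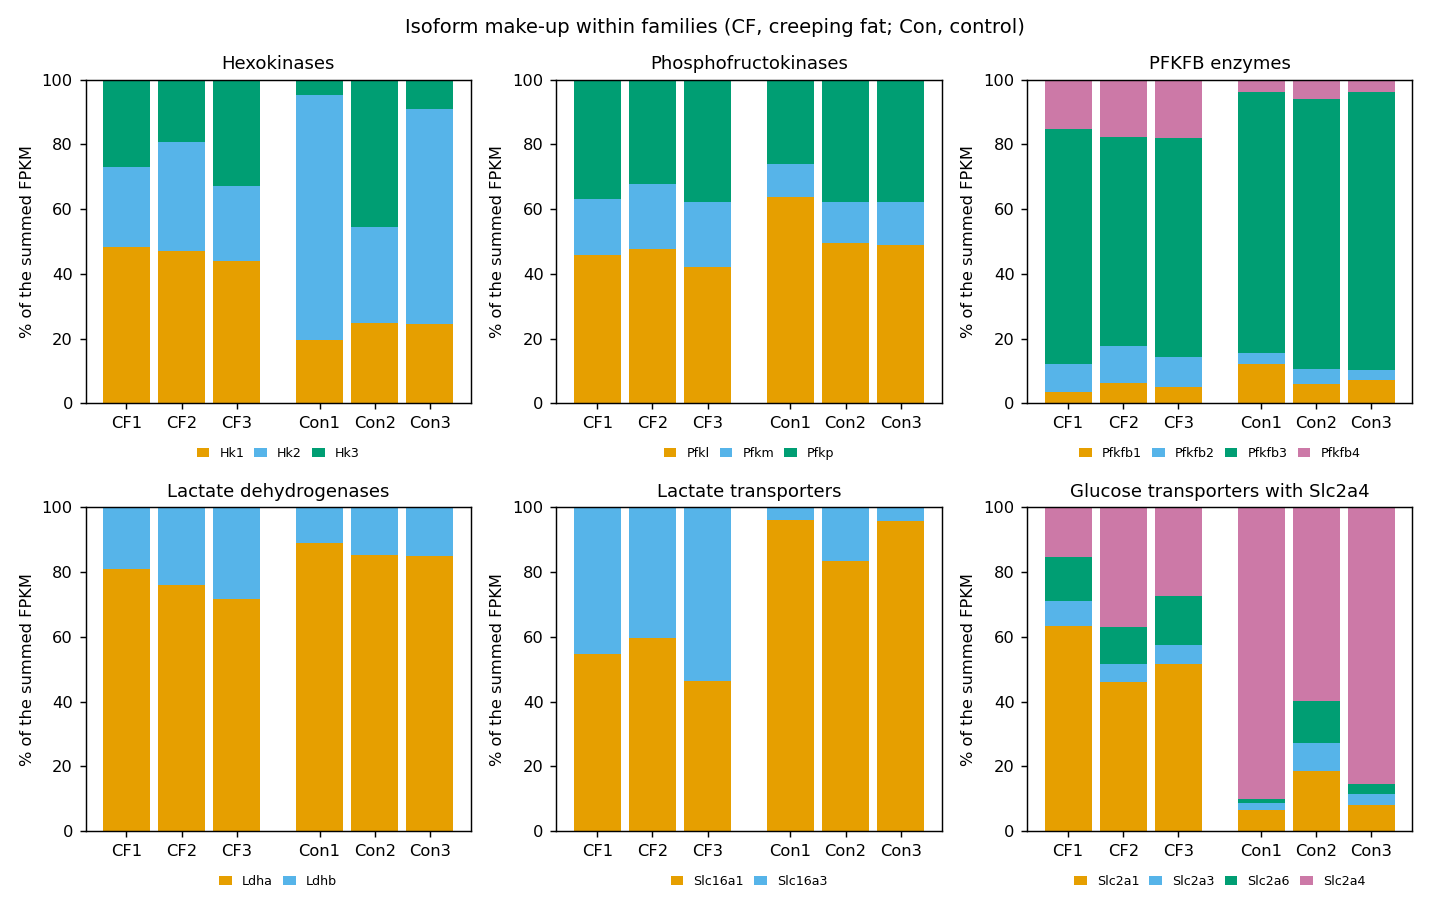
Share of each isoform in the summed FPKM of its family, in percent, for each creeping fat and control library. Hk1 holds 44.0% to 48.4% of hexokinase FPKM in creeping fat, against 19.5% to 25.0% in control, and Slc16a3 holds 40.4% to 53.6% of lactate transporter FPKM, against 3.94% to 16.4%.

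At the phosphofructokinase step, the rate-controlling commitment to glycolysis, no subunit gene passed the test. Pfkl, the liver-type subunit, was at 22, 22.1 and 20.7 FPKM in creeping fat and 49.2, 22.5 and 26.2 FPKM in control (-0.49 ± 0.28, adjusted p = 0.303). Its groups did not overlap, but control 2 lay just above creeping fat 2. Pfkm, the muscle-type subunit, was at 8.36, 9.35 and 9.88 FPKM in creeping fat and 7.85, 5.78 and 7.19 FPKM in control, without overlap (0.37 ± 0.15, adjusted p = 0.162). Pfkp, the platelet-type subunit, averaged 17.1 ± 1.83 FPKM in creeping fat and 19.2 ± 1.74 FPKM in control (SD, n = 3 each). The Pfkm to Pfkl ratio was 0.38, 0.422 and 0.477 in creeping fat and 0.159, 0.257 and 0.275 in control, a log2 difference of 0.92 without overlap. The Pfkp to Pfkl ratio overlapped (0.34, exact permutation p = 0.4). Skeletal muscle markers, which bear on Pfkm and on the muscle enolase Eno3, took 0.00284% to 0.00756% of FPKM in creeping fat and 0.00336% to 0.00706% in control. Of these 13 markers, 3 reached the filter for testing. The muscle actin gene Acta1 was at 5.72, 20.6 and 10.8 FPKM in creeping fat and 7.19, 5.8 and 20.9 FPKM in control. The muscle myosin genes Mylpf and Myh1 stayed under 0.36 FPKM in all libraries. The part of these markers in the values of Pfkm and Eno3 was not tested.

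The 4 PFKFB enzymes make and break the fructose bisphosphate that is the strongest activator of phosphofructokinase. Pfkfb3, whose product favours synthesis of the activator, was at 31.4, 26.3 and 30.7 FPKM in creeping fat, against 83.8, 72.4 and 119 FPKM in control. All creeping fat values lay far below the lowest control value, that of control 2. The log2 fold change was -1.58 ± 0.21 (adjusted p = 0.0051), and the fall was called in 15 of 15 settings. Pfkfb1 (chrX:150587445-150643878), the liver and muscle isoform, was at 1.48, 2.61 and 2.34 FPKM in creeping fat and 12.7, 5.3 and 10.2 FPKM in control (-1.68 ± 0.31, adjusted p = 0.0142). Pfkfb2, the heart isoform, was at 3.79, 4.55 and 4.13 FPKM in creeping fat and 3.52, 3.85 and 4.05 FPKM in control, so the groups overlapped. Pfkfb4, an isoform named for testis, was at 6.51, 7.1 and 8.15 FPKM in creeping fat and 3.81, 5.26 and 5.42 FPKM in control without overlap (0.51 ± 0.17, adjusted p = 0.0901). The family was thus uneven, with Pfkfb1 and Pfkfb3 lower and Pfkfb2 and Pfkfb4 not past the test. The Pfkfb4 to Pfkfb3 ratio was 0.208, 0.27 and 0.265 in creeping fat and 0.0454, 0.0726 and 0.0455 in control, a log2 difference of 2.21. The Pfkfb3 to Pfkfb2 ratio was 8.28, 5.77 and 7.44 in creeping fat and 23.8, 18.8 and 29.4 in control (-1.74). Both ratios were clear of overlap between the groups. Pfkfb3 was the most abundant of the 4 in all libraries, at 64.8% to 72.7% of their sum in creeping fat and 80.7% to 85.8% in control, while Pfkfb4 held 15.1% to 18.0% in creeping fat and 3.66% to 6.05% in control. The sum was 43.15, 40.52 and 45.31 FPKM in creeping fat, against 103.8, 86.85 and 138.8 FPKM in control. The call of Pfkfb1 ended without creeping fat 1 (adjusted p = 0.0636), creeping fat 3 (0.0523) or control 3 (0.0653).

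**Figure D3:**
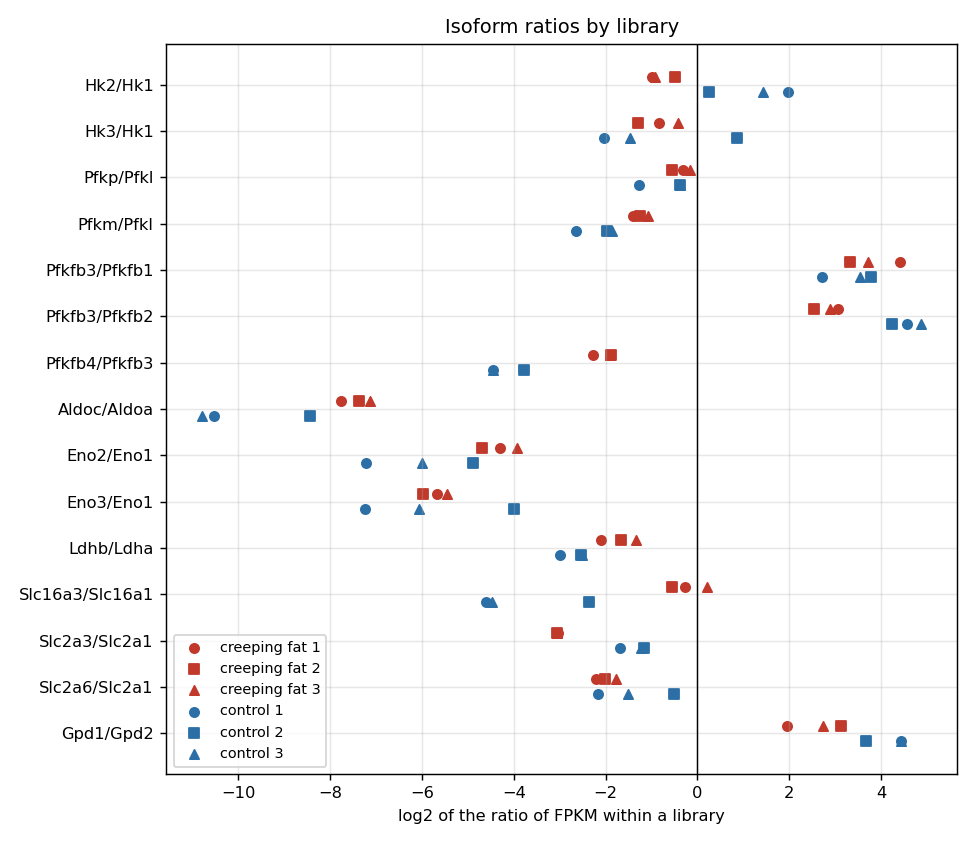
Log2 ratios within a library for 15 isoform pairs, with each creeping fat and control library as a point. The ratios do not overlap for 10 pairs, 6 higher and 4 lower in creeping fat, and the widest difference is that of Slc16a3 to Slc16a1. Several pairs share a gene, so they are not separate results.

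In lower glycolysis, from Gapdh to Pkm, the neuronal-type enolase Eno2 was the one gene that passed the test. Eno2 (chr6:124760053-124769673) was at 7.84, 6.96 and 9.5 FPKM in creeping fat, against 2.54, 4.33 and 2.94 FPKM in control (1.1 ± 0.20, adjusted p = 0.0135). Eno1, the general enolase, was at 154, 181 and 146 FPKM in creeping fat and 381, 128 and 187 FPKM in control, overlapping, and the Eno2 to Eno1 ratio was 0.0508, 0.0384 and 0.0653 in creeping fat and 0.00668, 0.0338 and 0.0157 in control. The near copy Eno1b in the table averaged 2.62 FPKM in creeping fat and 3.62 FPKM in control, so few reads are recorded there. Eno3, the muscle enolase, was at 3.01, 2.89 and 3.32 FPKM in creeping fat and 2.54, 8.02 and 2.81 FPKM in control. Its highest value was again control 2. Pgk1, which makes the first ATP of the pathway, was at 62.6, 72.5 and 55.3 FPKM in creeping fat and 52.5, 38.1 and 41.9 FPKM in control without overlap (0.52 ± 0.18, adjusted p = 0.101). The call of Eno2 ended without creeping fat 1 (adjusted p = 0.0592), creeping fat 3 (0.0616) or control 3 (0.0627).

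The other trunk enzymes did not pass the test. Gpi1, which turns glucose phosphate into fructose phosphate, was at 93.1, 102 and 94.7 FPKM in creeping fat and 105, 79.1 and 80.4 FPKM in control. Pkm, pyruvate kinase, was at 83.3, 85.9 and 73.3 FPKM in creeping fat and 84.2, 50.1 and 61.7 FPKM in control. Pgam1, phosphoglycerate mutase, averaged 40.3 ± 3.34 FPKM in creeping fat and 33.4 ± 13.5 FPKM in control, and Tpi1, triosephosphate isomerase, 137 ± 9.37 and 121 ± 46.2 FPKM. Gapdh averaged 29.9 ± 1.80 FPKM in creeping fat and 32 ± 11.2 FPKM in control (all SD, n = 3 each). The creeping fat libraries lay within the range of the controls for Pkm, Pgam1, Tpi1 and Gapdh, apart from Pkm in creeping fat 2. Gapdh, Pgk1, Pgam1, Tpi1, Ldha and Aldoa have processed pseudogenes that can share reads with them, so their levels are uncertain. Aldoa, the main aldolase, was at 206, 241 and 220 FPKM in creeping fat and 726, 229 and 424 FPKM in control. Control 2 lay among the creeping fat values. Aldoc stayed at or under 1.58 FPKM and was not tested, but it was higher in each creeping fat library, at 0.943, 1.45 and 1.58 FPKM, than in any control, at 0.493, 0.659 and 0.241 FPKM. The gluconeogenic bisphosphatases Fbp1 and Fbp2 were low, with 0 to 63 reads in a library.

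The step that makes lactate and the carriers that move it differed between isoforms. Ldha was at 58.4, 67.2 and 51.9 FPKM in creeping fat and 189, 71.4 and 124 FPKM in control without overlap (-1.0 ± 0.34, adjusted p = 0.0964). Ldhb was at 13.6, 21.2 and 20.5 FPKM in creeping fat and 23.6, 12.3 and 21.7 FPKM in control, with overlap. The Ldhb to Ldha ratio was 0.233, 0.316 and 0.395 in creeping fat and 0.125, 0.172 and 0.175 in control, without overlap (0.98). Slc16a3, which encodes the lactate exporter MCT4 of glycolytic cells, was at 10.7, 9.8 and 8.31 FPKM in creeping fat, against 0.89, 1.99 and 0.809 FPKM in control. The groups lay far apart, and control 2 was the highest control. The log2 fold change was 2.28 ± 0.23 (adjusted p = 0.00224), the largest rise among the 35, and it was called in 15 of 15 settings. Slc16a1, the broader carrier MCT1, was at 12.8, 14.5 and 7.18 FPKM in creeping fat and 21.7, 10.2 and 17.9 FPKM in control, with overlap. Slc16a3 made up 45.4%, 40.4% and 53.6% of the sum of both carriers in creeping fat, against 3.94%, 16.4% and 4.33% in control.

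**Figure D4:**
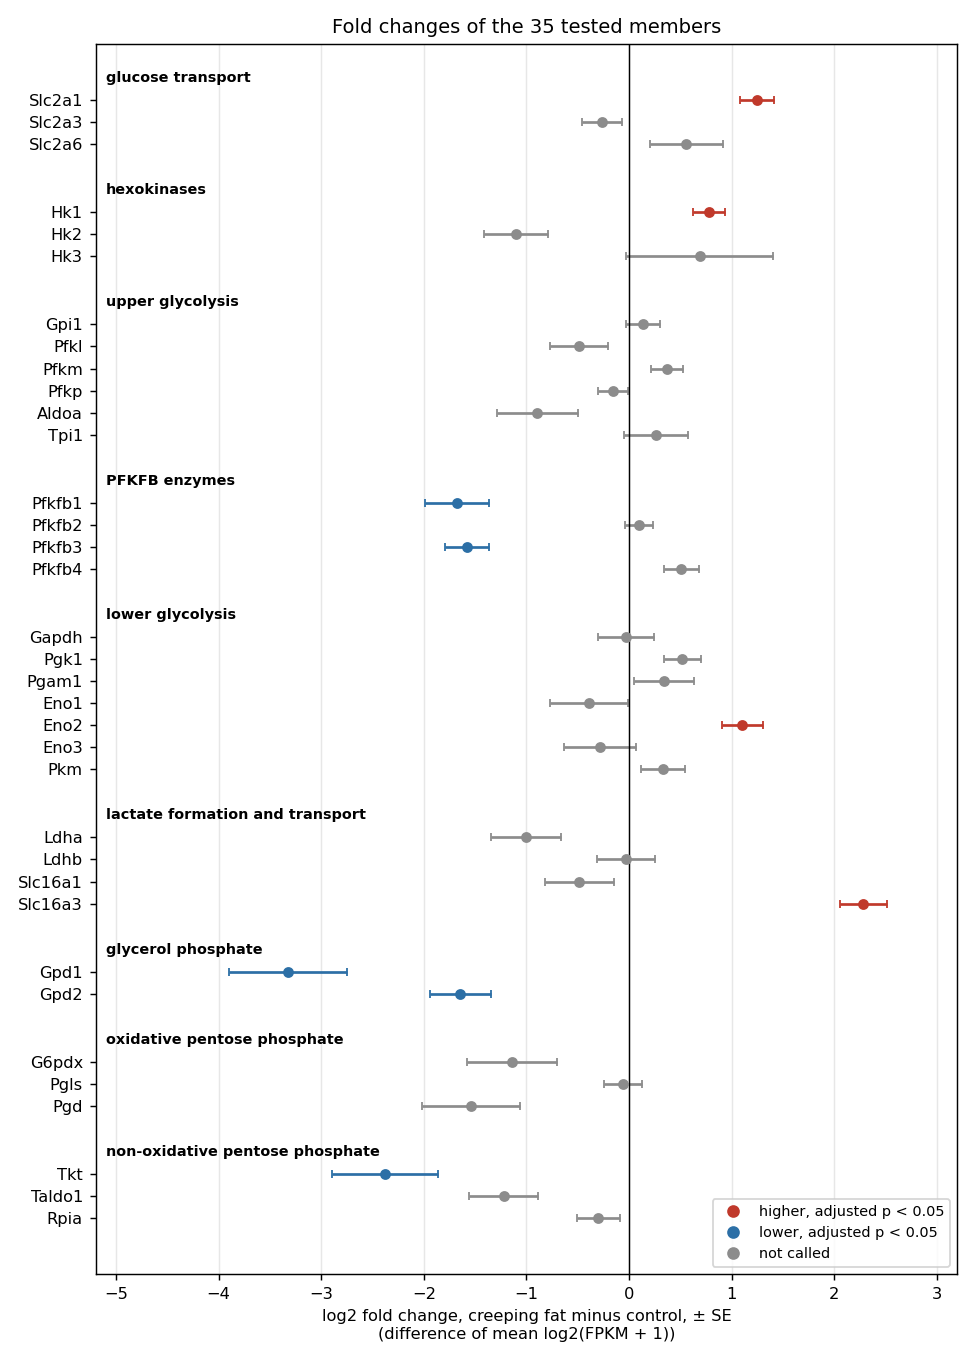
Log2 fold changes of creeping fat over control with standard errors for the tested genes, with those that passed the adjusted p threshold marked. The estimates run from -3.33 for Gpd1 to 2.28 for Slc16a3.

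Both enzymes of the glycerol phosphate shuttle fell. Gpd1 (chr15:99717587-99725014), which makes glycerol phosphate from a glycolytic intermediate, was at 22.2, 62.7 and 47 FPKM in creeping fat, against 787, 194 and 465 FPKM in control. The groups did not overlap, control 2 being the lowest control and creeping fat 2 the highest of its group. The change was -3.33 ± 0.57 (adjusted p = 0.0112), the largest fall among the 35. It was called in 14 of 15 settings and lost without control 3 (adjusted p = 0.0522). Gpd2 (chr2:57237678-57370719), the mitochondrial enzyme of the shuttle, was at 5.77, 7.16 and 7.04 FPKM in creeping fat and 36.4, 15.2 and 21.4 FPKM in control (-1.65 ± 0.30, adjusted p = 0.0135). The Gpd1 to Gpd2 ratio was 3.84, 8.76 and 6.68 in creeping fat and 21.6, 12.7 and 21.7 in control. Gpd2 was not called without creeping fat 1 (adjusted p = 0.0628), creeping fat 3 (0.0512) or control 3 (0.0531).

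Of the 6 pentose phosphate genes tested, Tkt fell and the other 5 did not pass the test. Tkt, transketolase, was at 42.9, 68.5 and 57.2 FPKM in creeping fat, against 610, 137 and 295 FPKM in control (-2.38 ± 0.51, adjusted p = 0.0234). Its call ended without creeping fat 1 (adjusted p = 0.0951), creeping fat 2 (0.0564), creeping fat 3 (0.0794) or control 3 (0.0859). Taldo1, transaldolase, was at 58, 68.4 and 65.2 FPKM in creeping fat and 247, 93.4 and 146 FPKM in control (-1.22 ± 0.34, adjusted p = 0.053). Tkt and Taldo1 form the core of the non-oxidative branch, and Pgd and G6pdx make NADPH in the oxidative one. Pgd, the second NADPH-making enzyme, was at 50.2, 60.2 and 53.5 FPKM in creeping fat and 321, 76.7 and 167 FPKM in control (-1.54 ± 0.47, adjusted p = 0.0727). G6pdx, the first, was at 29.6, 33.2 and 33.8 FPKM in creeping fat and 130, 34.5 and 82.3 FPKM in control (-1.14 ± 0.44, adjusted p = 0.133), and its near copy G6pd2 was listed at 0 in all 6 libraries. In these 4 genes the groups did not overlap, and control 2 was the lowest control. Control 2 was the lowest control in all 11 of the 35 genes that were lower without overlap. The same held for 55.4% of all such genes tested. Pgls, the lactonase between them, averaged 35.6 ± 2.88 FPKM in creeping fat and 37.8 ± 8.29 FPKM in control, and Rpia, which makes ribose phosphate, 10.1 ± 2.96 and 12.4 ± 0.84 FPKM (SD, n = 3 each).

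Of the 35 genes, 7 were higher and 11 lower in every creeping fat library than in any control, against 20.2% higher, 16.9% lower and 37% either way of all genes tested. In all 11 that were lower, control 2 was the lowest of the controls, against 55.4% of the 2162 tested genes with such a separation. Control 1 was the highest control in 10 of the 11, against 787 of those 2162. Creeping fat 1 was the lowest of its group in 7 of the 11, against 1132 of the 2162, which is a similar share. Adipocyte marker shares had the same order among controls, with control 2 lowest at 1.59% and control 1 highest at 4.34%. The part of these shares in the order of the 11 genes was not tested. Leaving out control 2, 7 of the 35 genes were called higher and 11 lower, against 22.6% and 14.5% of all genes tested. The genes added were Slc2a6, Hk3 and Pfkfb4 among those higher, and Hk2, Aldoa, Ldha, G6pdx, Pgd and Taldo1 among those lower.

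The neighbouring pathways held 141 listed genes, of which 118 were tested, 11 rose and 29 fell, with a median log2 fold change of -0.38. Of all genes tested, 9.35% were called higher, about the share among these 118, and 6.81% were called lower. Pyruvate entry into mitochondria and gluconeogenesis had the most falls, with 10 of 18 lower and 2 higher. Pcx, pyruvate carboxylase, fell to 20.4, 61.6 and 41.9 FPKM in creeping fat, against 672, 197 and 346 FPKM in control (-3.22), and the pyruvate carrier subunit gene Mpc1 fell by 2.16 on the log2 scale. Pdk4, an inhibitory kinase of pyruvate dehydrogenase, fell by 1.89, while Pdk3 and the activating phosphatase gene Pdp1 rose (0.69 and 0.87). Glycogen metabolism had 4 of 19 lower and none higher, led by the glycogen synthase genes Gys2 (-2.25) and Gys1 (-1.39) and the branching enzyme gene Gbe1 (-2.11). The other pentose phosphate and ribose genes had 3 of 6 lower and none higher: Prps1, a ribose phosphate pyrophosphokinase gene (-1.06), Rpe, the epimerase gene (-0.82), and Shpk, a sedoheptulose kinase gene (-0.63). In serine synthesis, which branches off glycolysis, Phgdh (-2.18) and Psat1 (-1.42) fell among 5 tested. Glycerol handling had 3 of 5 lower, the glycerol channel gene Aqp7 (-2.56) and the acyltransferase genes Gpat3 (-2.22) and Gpam (-1.70). Of 5 other hexose transporters tested, Slc2a10 rose (1.24) and Slc2a4 fell. Of 12 genes of hexosamine and nucleotide sugar synthesis, Uap1l1 rose (1.42). Of 6 genes of fructose and polyol metabolism, the aldo-keto reductase gene Akr1b8 rose (1.17). Among other isoforms, Bpgm, the mutase that makes bisphosphoglycerate, rose to 30.5, 39.5 and 48.6 FPKM in creeping fat, against 12.3, 12 and 12.9 FPKM in control (1.58 ± 0.19, adjusted p = 0.0037). Ldhd, the D-lactate dehydrogenase gene, fell among the same 7 tested (-1.04). Bpgm is best known from red cells, and the erythroid marker share was 0.0786% to 0.216% in creeping fat and 0.17% to 0.235% in control, with none of 5 tested erythroid markers called. Which cells the Bpgm RNA came from was not tested.

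Among the 15 regulators listed, Hif1a was the one that rose, at 64, 54.5 and 35.7 FPKM in creeping fat and 16.8, 15.3 and 18 FPKM in control (1.53 ± 0.23, adjusted p = 0.00709). Epas1, the related HIF subunit gene, fell to 104, 70.6 and 78.9 FPKM in creeping fat, against 211, 117 and 194 FPKM in control (-1.0 ± 0.27, adjusted p = 0.0489). Mlxipl, which encodes the glucose-sensing regulator ChREBP, fell to 1.32, 4.02 and 3.34 FPKM in creeping fat, against 41.2, 14.6 and 25.6 FPKM in control (-2.81 ± 0.43, adjusted p = 0.00773). Of 17 tested HIF target genes outside glycolysis, P4ha2 (0.91), Mxi1 (0.72) and Ak4 (0.69) rose, and Bnip3 (-1.41) and Vegfa (-0.74) fell. Of the glycolytic genes known as HIF targets, Slc2a1 and Slc16a3 were higher and Pfkfb3 lower, while others, such as Pgk1, Ldha and Aldoa, did not pass the test. The part of HIF in these changes was not tested. RNA levels of these regulators do not measure the amount or activity of their proteins. Of 3 tested partners of lactate transport, Emb, a chaperone gene for some lactate carriers, rose to 22.4, 15.3 and 13.3 FPKM in creeping fat, against 4.09, 8.17 and 5.57 FPKM in control (1.38 ± 0.27, adjusted p = 0.0174). Bsg, another chaperone gene for lactate carriers, averaged 132 FPKM in creeping fat and 120 FPKM in control and did not pass the test (0.17 ± 0.20, adjusted p = 0.649).

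**Figure D5:**
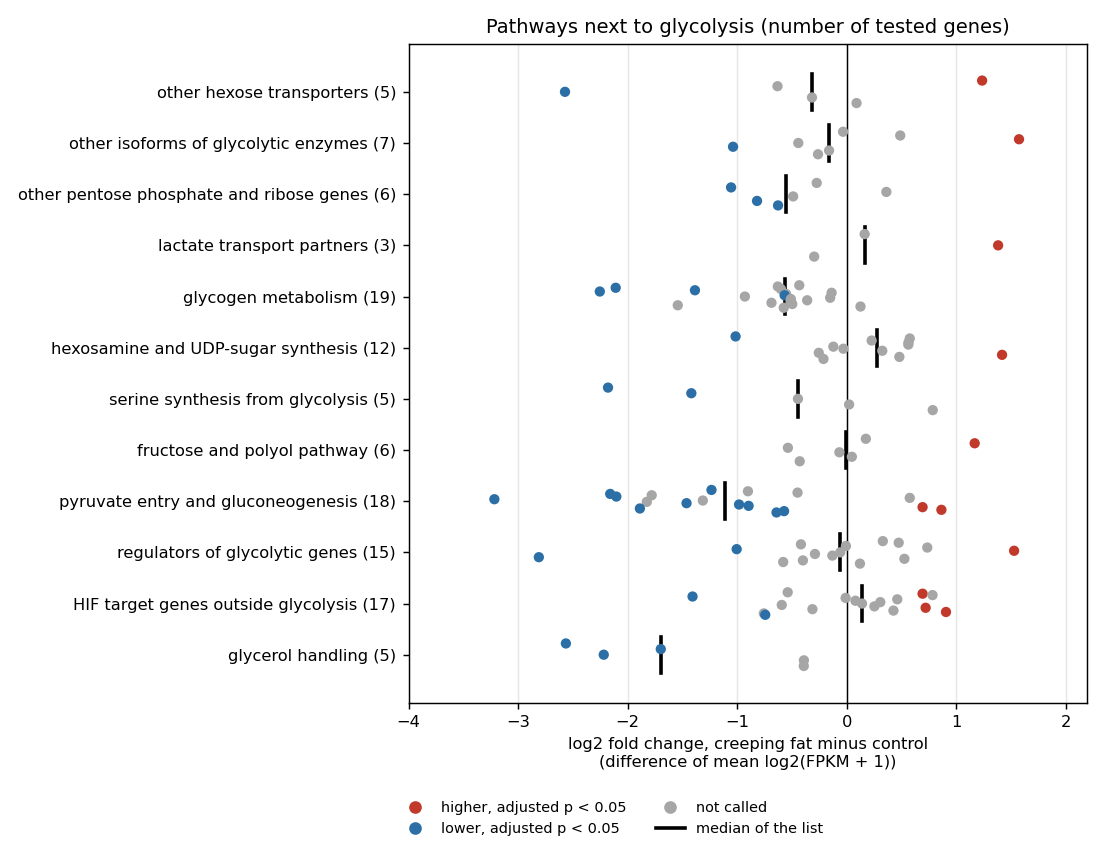
Log2 fold changes of creeping fat over control for the tested genes of each neighbouring pathway list, 1 point per gene, with genes that passed the adjusted p threshold marked. Pyruvate entry and gluconeogenesis has the most points that fell, 10 of 18.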

How the data were processed

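Total RNA of 6 WT mouse adipose libraries, 3 creeping fat and 3 control, was sequenced; groups and numbers came from the sample titles. The authors deposited 1 table of FPKM values for 22134 genes. The submitters' processing notes name mm10 as the genome build. Aligner, counter, annotation and use of strand are not given in the sources used here, so reads of overlapping or antisense genes cannot be told apart. FPKM are relative to the library total, so a transcript class with a large share lowers the others.

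Values were tested as log2(FPKM + 1) with limma 3.58.1 (R 4.3.3), with an intensity trend and Benjamini-Hochberg adjustment over the 12812 genes that reached 1 FPKM in 3 or more libraries, and called at adjusted p under 0.05. Fold changes of low genes are understated on this scale. Library totals and reads were recovered from the whole-read steps of the FPKM values, whole within 0.01 reads for 17999 genes. They served for depth and for limma's voom, added after the data were seen. Scripts were tested on simulated data. Isoform ratios used exact permutation tests. Promoters and gene positions are from RefSeq GRCm38.p6. All 38 genes are accounted for, and other lists name up to 3 called genes in each direction. Bsg was added though it was not called. The genes and lists were chosen with earlier results of these data known. Alternatives were a pseudocount of 0.1, other filters and scalings, fits without the trend or with a replicate block, and leaving out libraries. Floors cover counting error only. One result among the neighbouring pathway genes is not reported here.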

Additional observations from a re-analysis of the deposited data

How the results depend on the processing

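With the numbers as a replicate block, 636 genes were higher and 378 lower of all genes tested, and 2 and 3 of the glycolytic genes; Hk1, Pfkfb1, Eno2 and Tkt lost their calls (adjusted p 0.051 to 0.0846). The labels do not say whether equal numbers mark a pair. Same-numbered libraries correlated at -0.181, -0.18 and -0.081 in their deviations from the group mean. Deviations of 3 libraries from their own mean balance around 0, so these values cannot decide whether the numbers mark pairs. The calls lost under the block are therefore given without a reading. Quantile normalization called 8 of the glycolytic genes lower, adding Ldha, Pgd and Taldo1, against 7.65% lower of all genes tested. Rescaling without pancreas, seminal vesicle and prostate genes called 7 lower, against 6.9% of all genes tested. It added Hk2 (adjusted p = 0.0453) and Taldo1 (0.0417). Without both libraries numbered 2, 2713 genes were higher and 1731 lower, 21.2% and 13.5% of all genes tested. Of the glycolytic genes, 12 were lower, and Slc2a1, Slc2a6, Hk1, Hk3, Eno2 and Slc16a3 were higher. Leaving out 1 library at a time gave 576 to 2896 genes higher, 287 to 1857 lower, and 2 to 7 glycolytic genes higher and 1 to 11 lower; the highest counts all came without control 2, which also moved the median log2 fold change of all genes to 0.13. No called gene changed direction in any setting tried. Genes that were not called did. With 1 library left out the log2 fold change ran from -0.34 to 0.18 for Gapdh, -0.31 to 0.17 for Ldhb, -0.74 to 0.044 for Eno1, -0.19 to 0.10 for Pgls, -0.10 to 0.49 for Tpi1 and -0.53 to 0.15 for Eno3, and the log2 ratio difference from -0.55 to 0.90 for Hk3 to Hk1 and -0.67 to 0.94 for Eno3 to Eno1. Gapdh was 0.02 under quantile normalization, Tpi1 -0.15 and Eno3 0.18 without both libraries numbered 2, and the Hk3 to Hk1 difference -0.092 with a pseudocount of 1. The causes were not tested. Voom on recovered reads called 1199 genes higher and 873 lower; 1976 were called by both, the 9 glycolytic genes among them. Aldoc, Fbp1 and Fbp2 fell under the 1 FPKM filter. Without a filter, all 38 genes were tested, and 4 were called higher and 5 lower. Of the 18714 genes tested in that setting, 5.89% were called higher and 3.84% lower.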
